A study of Caenorhabditis elegans with 2 samples.

Results

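The genes described here are 8 maternal genes of the Caenorhabditis elegans oocyte and early embryo, mex-5, mex-6, pos-1, oma-1, oma-2, rme-2, egg-1 and egg-2. They were taken by name from the Ensembl annotation of assembly WBcel235, where all 8 were found among 19985 protein-coding genes. The data were lists of genome regions from chromatin precipitation (ChIP-seq) of SNPC-1.1 in 2 biological replicates of whole young adult hermaphrodites. SNPC-1.1 is related to a subunit of SNAPc, the complex that activates small nuclear RNA genes. Both replicates came from the transgenic strain YL482, in which SNPC-1.1 (C06A8.2) carries a GFP and FLAG tag at its C terminus, and chromatin was precipitated with an antibody against GFP. The labels give neither the promoter of the transgene nor the tissues that express it. There was no second condition, and the control named in the labels was not analysed here, so each value is a description, without a test. For each gene, the regions with a summit (the position of highest signal given by the authors) within 500 bp of the annotated 5 prime end were collected from 4 lists: 1500 reproducible peaks, 30000 regions of the pooled replicates, 29523 regions of replicate 1 and 26195 of replicate 2. The 1500 reproducible peaks were also the 1500 pooled regions of highest signal. The pooled list is labelled as peaks and background, so a region outside the reproducible set is a listed region and not an established binding site. The signal is the authors' score per region on a scale that is not stated, so it is compared only within a list, and across lists the place of a region is given as its rank or as its rank in percent of the list, where a low percentage means a strong region. The lists hold no read totals, so the depth is unknown.

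In worms the germ line makes most of the RNA and protein that the first embryonic divisions use, and maternal messages are kept silent or destroyed by RNA-binding proteins until they are needed. Several of the 8 genes encode such proteins with zinc fingers of the CCCH type. MEX-5 and its close relative MEX-6 act in the zygote to separate anterior from posterior proteins. POS-1 binds maternal messages in posterior cells, and OMA-1 and OMA-2 act redundantly in the last steps of oocyte maturation. RME-2 is the oocyte receptor for yolk, of the LDL receptor family, and EGG-1 and EGG-2 are related membrane proteins of the egg surface that are needed for fertilisation and for the switch from egg to embryo. Many worm messages receive a spliced leader, so an annotated 5 prime end may lie downstream of the point where transcription begins. Since whole animals were used, many cells with weak binding and few germ cells with strong binding cannot be told apart.

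Each of the 8 genes had a listed region upstream of its start, which at mex-6, oma-1 and egg-2 was not a reproducible peak. A reproducible peak was found at 5 of the 8 (62.5%), mex-5, rme-2, pos-1, oma-2 and egg-1, against 4.25% of all protein-coding genes. The 8 genes were chosen with earlier results of these data known, so their shares are not independent of that choice. In the pooled list all 8 had a region, against 37.7% of protein-coding genes. All 8 also had one in replicate 1, where the share over protein-coding genes was 35.8%, and in replicate 2, where it was 34.8%. A region in the pooled list and in both replicates together was present at 8 of 8 genes and at 20.1% of all protein-coding genes. The members of the pairs mex-5 and mex-6, oma-2 and oma-1, and egg-1 and egg-2 fell on different sides of the reproducible set, with mex-5, oma-2 and egg-1 inside it. The lowest signal among reproducible peaks was 58.8, and the genes nearest to that limit were egg-1 and oma-2 above it, with 66.9 and 67.7, and oma-1 below it, with 53.1.

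**Figure D1:**
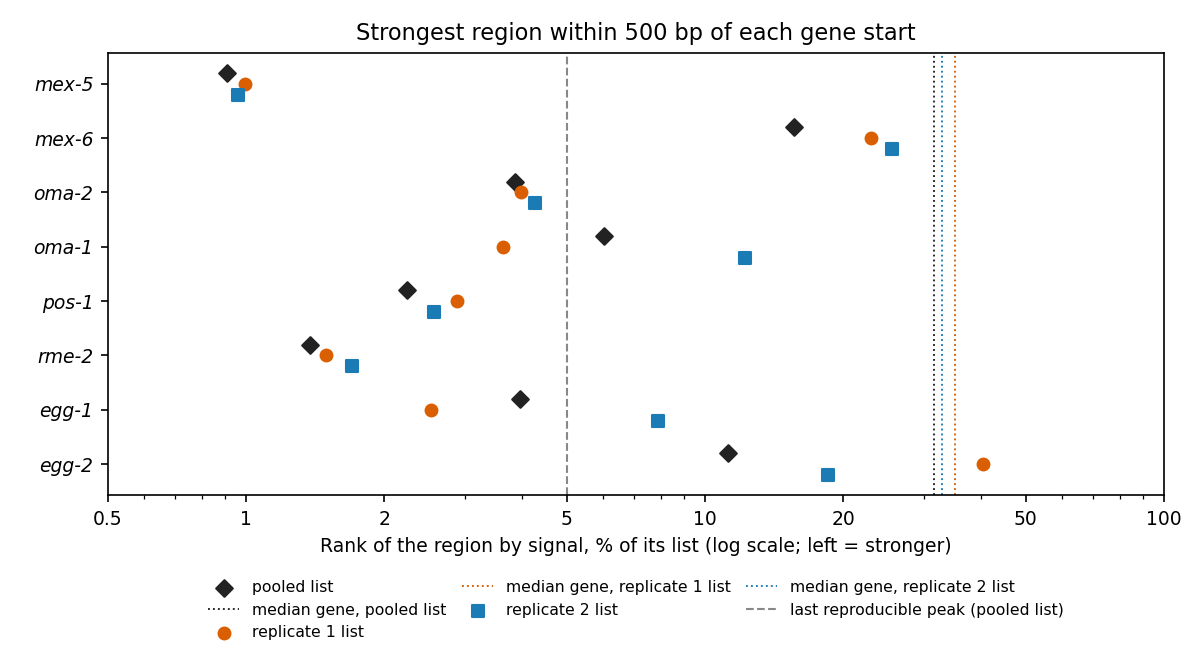
Rank of the strongest region within 500 bp of each gene's start, in percent of its list on a log scale, for the pooled list (diamonds), replicate 1 (circles) and replicate 2 (squares). Dotted lines mark the median over all protein-coding genes with a region (31.6% pooled, 35.0% replicate 1, 32.9% replicate 2) and the dashed line the last of the 1500 reproducible peaks. Of the 24 points, 1 (egg-2 in replicate 1, 40.3%) lies to the right of the medians.

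The sequences around the summits are shown because the regions at these genes can be compared base by base. Each run is 151 bases of ce11 centred on the summit of the strongest region, read 5′ to 3′ on the strand of the gene, from the RefSeq assembly of WBcel235. Capitals mark words of 7 bases that were in excess at other protein-coding peaks, as described further on. None of the 8 windows overlapped an annotated gene.
mex-5, chrIV:13353340-13353490, plus strand: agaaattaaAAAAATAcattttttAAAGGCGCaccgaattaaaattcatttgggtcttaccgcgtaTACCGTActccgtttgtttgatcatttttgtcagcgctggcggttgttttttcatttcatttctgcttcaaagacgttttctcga
mex-6, chrII:9523688-9523838, plus strand: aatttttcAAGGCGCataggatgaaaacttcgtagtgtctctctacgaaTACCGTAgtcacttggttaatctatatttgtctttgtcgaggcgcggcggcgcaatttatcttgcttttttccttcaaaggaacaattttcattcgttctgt
pos-1, chrV:8413748-8413898, plus strand: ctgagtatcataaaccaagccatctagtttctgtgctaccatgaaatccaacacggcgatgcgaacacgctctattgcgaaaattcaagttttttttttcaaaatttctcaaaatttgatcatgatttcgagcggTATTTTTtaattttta
oma-1, chrIV:8888666-8888816, plus strand: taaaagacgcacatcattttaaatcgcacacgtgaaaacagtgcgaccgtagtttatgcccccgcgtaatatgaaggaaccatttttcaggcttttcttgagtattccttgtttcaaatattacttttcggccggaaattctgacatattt
oma-2, chrV:8028983-8029133, plus strand: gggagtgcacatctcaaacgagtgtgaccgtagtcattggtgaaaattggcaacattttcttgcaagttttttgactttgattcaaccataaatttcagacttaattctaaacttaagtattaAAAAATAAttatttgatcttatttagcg
rme-2, chrIV:5469868-5470018, plus strand: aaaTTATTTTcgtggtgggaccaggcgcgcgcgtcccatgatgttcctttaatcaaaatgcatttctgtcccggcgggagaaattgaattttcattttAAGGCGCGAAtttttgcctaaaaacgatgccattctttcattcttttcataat
egg-1, chrIII:5727921-5728071, plus strand: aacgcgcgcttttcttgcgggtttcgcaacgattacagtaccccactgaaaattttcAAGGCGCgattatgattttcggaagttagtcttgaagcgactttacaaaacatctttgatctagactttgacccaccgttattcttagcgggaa
egg-2, chrIII:7060851-7061001, minus strand: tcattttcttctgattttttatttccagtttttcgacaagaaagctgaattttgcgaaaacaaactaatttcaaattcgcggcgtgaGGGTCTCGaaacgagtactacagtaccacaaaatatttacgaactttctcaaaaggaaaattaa

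The strongest region belonged to mex-5 (WBGene00003230, chromosome IV, 13353723 to 13356104, plus strand). Its pooled signal was 158, the 272nd of 30000 regions, and its peak ranked 82nd among the 850 protein-coding genes with a reproducible peak. The mex-5 region had a signal of 61.6 in replicate 1, at rank 294 of 29523, and a signal of 111 in replicate 2, at rank 251 of 26195. Both replicates thus put it in the highest 1% of their regions, at 0.996% and 0.958%. The summit lay 308 bp upstream of mex-5, and 233 and 322 bp upstream in replicates 1 and 2. It also lay 222 bp from the start of rec-8, on the other strand, which encodes the meiotic cohesin subunit REC-8, and the starts are 530 bp apart, so the peak cannot be given to one of these genes.

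For mex-6 (WBGene00003231, chromosome II, 9524174 to 9526359, plus strand) the pooled signal was 32.8, at rank 4665. The mex-6 region had a signal of 12.9 at rank 6781 in replicate 1 and of 18.5 at rank 6694 in replicate 2. Its place was alike in both replicates, 23.0% and 25.6% of the list, well below that of mex-5. The summit lay 411 bp upstream in the pooled list, and the summits of both replicates, 441 and 449 bp upstream, were 8 bp apart. No other gene started within 500 bp of it. The MEX-5 and MEX-6 proteins, of 468 and 467 residues in the annotation, had the same residue at 337 of 456 aligned positions (73.9%).

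The OMA pair was closer. The gene oma-2 (WBGene00003865, chromosome V, 8029439 to 8031214, plus strand) had a pooled signal of 67.7 at rank 1154, a signal of 27.7 at rank 1175 in replicate 1 and a signal of 44.7 at rank 1113 in replicate 2. These ranks were nearly equal, between 3.85% and 4.25% of the lists. The gene oma-1 (WBGene00003864, chromosome IV, 8888976 to 8890999, plus strand) had a pooled signal of 53.1 at rank 1804, a signal of 29.0 at rank 1068 in replicate 1 and a signal of 25.9 at rank 3198 in replicate 2. In replicate 1 alone oma-1 thus ranked above oma-2, and in replicate 2 below it, so the order of the pair did not hold between replicates. The summit was 381 bp upstream of oma-2 and 235 bp upstream of oma-1 in the pooled list, and no other gene started within 500 bp of either. A second and weaker region lay inside oma-2, 124 bp downstream of the start in an intron, with a pooled signal of 32.3, and no such region was listed at oma-1. OMA-2 and OMA-1, of 393 and 407 residues, shared 256 of 392 aligned residues (65.3%).

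At egg-1 (WBGene00015083, chromosome III, 5728180 to 5730159, plus strand) the pooled signal was 66.9 at rank 1189. The egg-1 region had a signal of 35.8 at rank 746 in replicate 1 and a signal of 32.5 at rank 2063 in replicate 2. The gene would therefore be among the 1500 highest regions of replicate 1 and not of replicate 2. At egg-2 (WBGene00019811, chromosome III, 7058527 to 7060583, minus strand) the pooled signal was 38.1 at rank 3374, with a signal of 10.3 at rank 11892 in replicate 1 and of 21.3 at rank 4844 in replicate 2. Its place was 40.3% of the list in replicate 1 and 18.5% in replicate 2, and egg-1 ranked above egg-2 in each list. The pooled summits were 184 bp upstream of egg-1 and 343 bp upstream of egg-2, with no other start within 500 bp. EGG-1 and EGG-2, of 551 and 548 residues, shared 373 of 547 aligned residues (68.2%).

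The yolk receptor gene rme-2 (WBGene00004374, chromosome IV, 5470026 to 5473174, plus strand) had the second strongest region, with a pooled signal of 117 at rank 415. In the replicates the rme-2 signal was 46.8 at rank 441 and 72.1 at rank 445. Its summit was the closest to a start among the 8, at 83 bp upstream in the pooled list and 89 and 83 bp upstream in replicates 1 and 2. A second annotated transcript of rme-2 starts further downstream, and no other gene started within 500 bp. At pos-1 (WBGene00004078, chromosome V, 8414086 to 8415254, plus strand) the pooled signal was 90.4 at rank 671, with a signal of 32.9 at rank 850 in replicate 1 and of 57.9 at rank 673 in replicate 2. The pos-1 summit stayed within 6 bp over the 3 lists, at 263 bp upstream in the pooled list. It lay 341 bp from the start of vha-18, which is annotated on the other strand, so the same region also counts for that gene.

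**Figure D2:**
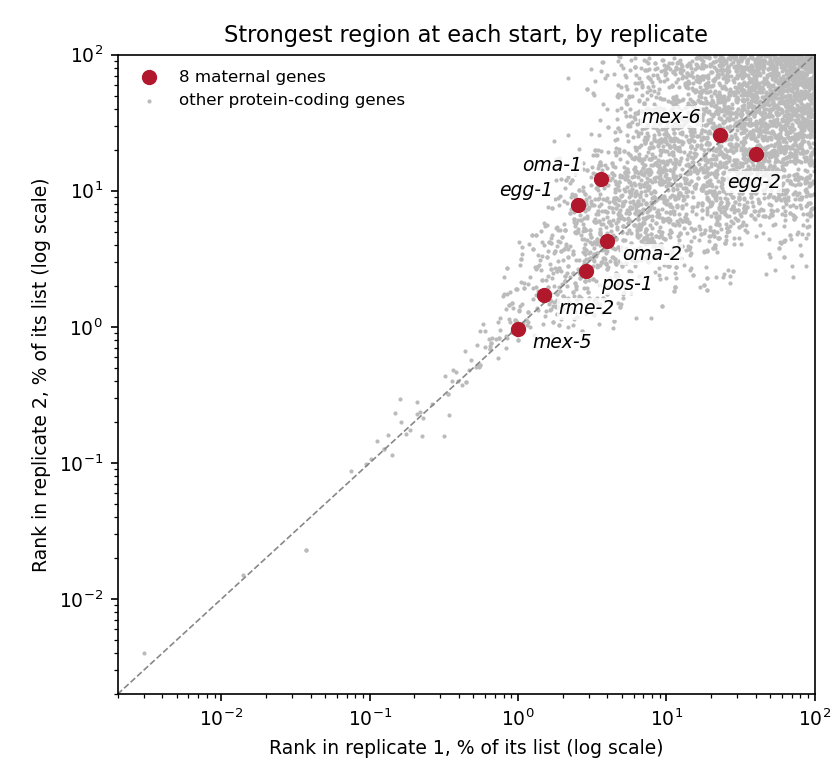
Rank of the strongest region within 500 bp of a start in replicate 2 against replicate 1, in percent of each list on log axes, for the 8 maternal genes (red, named) and the other protein-coding genes with a region in both replicates (grey). On the dashed line both ranks are equal; mex-5, rme-2, pos-1 and oma-2 lie close to it, oma-1 and egg-1 rank higher in replicate 1, egg-2 ranks higher in replicate 2, and mex-6 lies close to the line.

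Seen in each replicate by itself, 6 of the 8 genes had one of the 1500 regions of highest signal in replicate 1, against 3.87% of protein-coding genes, and 4 of 8 in replicate 2, against 4.24%. Shared by both replicates were mex-5, rme-2, pos-1 and oma-2, while oma-1 and egg-1 passed in replicate 1 alone. Across the 4272 protein-coding genes with a region in both replicates, the percent ranks had a Spearman rho of 0.57, given as a description since the genes share their libraries. Every member's region overlapped a region in each replicate over at least 76.6% of its length. The pooled and reproducible regions were made from these same replicates, and the overlap over all regions was not counted, so this is no separate support. Around the starts, words of 36 bases that occur once in the genome made up 100% of positions within 500 bp at 7 genes and 95.3% at pos-1.

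The members were reached early as regions were counted from the highest signal downwards. They and the related genes were chosen with earlier results of these data known, so the shares below are not independent of that choice. Among the 500 strongest pooled regions were those of 2 of the 8 genes, against 7 of 62 related oocyte and embryo genes (11.3%) and 1.05% of all protein-coding genes. With 2000 regions 6 of the 8 genes had been reached, against 22.6% of the related genes and 5.73% of all protein-coding genes. With 5000 regions all 8 had been reached, against 35.5% of the related genes and 12.4% of protein-coding genes. The median pooled rank of the strongest region was 1171 over the 8 genes, 4664 over the related genes with a region and 9486 over all protein-coding genes with one. The median signals were 67.3, 32.8 and 24.6. The 250 highest regions included 0 of the 8 genes, 1 of the 62 related genes and 0.370% of protein-coding genes.

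**Figure D3:**
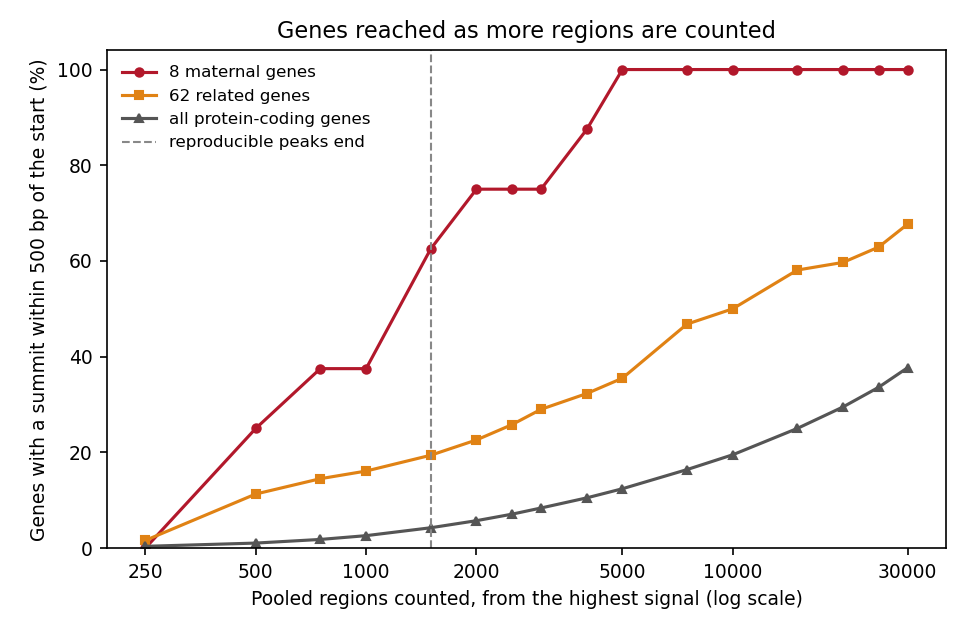
Share of genes with a summit within 500 bp of the start as more pooled regions are counted from the highest signal (log scale), for the 8 maternal genes, 62 related oocyte and embryo genes and all 19985 protein-coding genes. The dashed line marks the 1500 reproducible peaks, where the shares are 62.5%, 19.4% and 4.25%; the 8 genes reach 100% at 5000 regions. The 8 and the 62 genes were chosen with earlier results of these data known.

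All of these strongest regions lay upstream. In the pooled list the 8 summits were between 83 and 411 bp upstream, with a median of 285.5 bp, and all 8 were upstream in each replicate as well. Among protein-coding genes with a pooled region, 65.6% had the strongest summit upstream, with a median of 116 bp, and among those with a reproducible peak 87.1% did, with a median of 189 bp. The positions should be read as approximate. The summit was the middle of the region for 89.4% of reproducible peaks and for 99.5% of pooled regions, and between the replicates the members' summits differed by 6 to 89 bp. Of reproducible peaks near a protein-coding start, 30.4% lay near 2 or more such starts, as the peaks of mex-5 and pos-1 did. No tRNA, snRNA or snoRNA gene started within 500 bp of any of the 8 summits, 5 of which are reproducible peaks. Among all reproducible peaks near a protein-coding start 13.0% also lay near a start of those classes, a share at which 0 of 8 says little about the members.

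A second set of regions lay at the other end of the genes. Within 500 bp of the annotated 3 prime end, 8 of the 8 genes had a pooled region, against 38.7% of protein-coding genes, and 3 of 8 had a reproducible peak, against 2.68%. Pooled regions at both ends were found at 8 of 8 genes and at 21.2% of protein-coding genes. This end was looked at after the map of summits had been seen. Between the windows at the start and the end, the pooled list also held regions at rme-2 and mex-6, and none at the other members. In rme-2 they lay in coding exons, 1251 and 1923 bp downstream of the start, with signals of 43.6 and 38.0, and both replicates listed them. In mex-6 the signal was 17.5, and replicate 2 listed none there. How many protein-coding genes hold such regions was not counted. The reproducible peaks at the 3 prime end belonged to pos-1, with a signal of 71.7 and a summit in the 3 prime UTR 126 bp before the end, to rme-2, with a signal of 70.5 and a summit 187 bp past the end, and to oma-2, with a signal of 80.7 and a summit 123 bp past the end. The oma-2 case lay 74 bp from the start of vars-1, a valyl-tRNA synthetase gene, and its signal was above that of the upstream peak of oma-2 in the pooled list and in both replicates. The region at the 3 prime end was also the stronger one at pos-1 in replicate 1 (34.0 against 32.9 upstream), at egg-1 in replicate 2 (34.0 against 32.5) and at egg-2 in replicate 1 (16.2 against 10.3). No other gene started within 500 bp of the reproducible peaks at the ends of pos-1 and rme-2. The strongest region at this end of pos-1 had its summit 116 bp before the end in replicate 1 (rank 815) but 65 bp past the end in replicate 2 (rank 883), where a second pooled region lay 77 bp past the end with a signal of 49.3. At rme-2 the summit was 188 bp past the end in replicate 1 (rank 583) and 86 bp past it in replicate 2 (rank 1408). At the other 5 genes the pooled signal at this end was between 19.8 at mex-6 and 38.9 at egg-1. Regions with no start of another gene nearby were found in the pooled list at 7 of the 8 genes and at 25.3% of protein-coding genes. Some summits near the 3 prime ends lay in another gene: both pooled summits past egg-1 were in a coding exon of B0244.9, and the strongest one of replicate 1 at egg-2 was in a coding exon of R01H2.2. In replicate 2 no region was listed near the 3 prime end of mex-6.

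**Figure D4:**
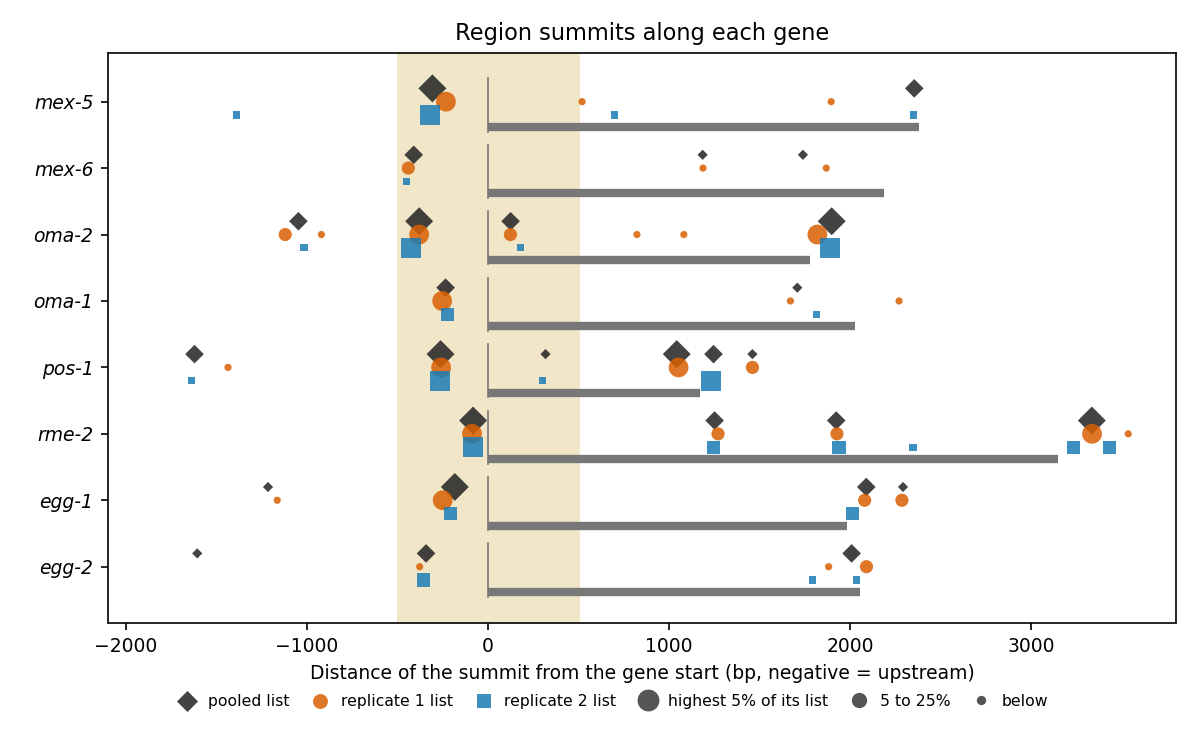
Summits of all regions from 2000 bp upstream of each gene's start to 500 bp past its end, in bp from the start, for the pooled list (diamonds), replicate 1 (circles) and replicate 2 (squares); grey bars are the genes and the shaded band is the window of 500 bp around the start. The largest symbols are regions in the highest 5% of their list; they lie upstream of 6 starts, not those of mex-6 and egg-2, and near the ends of oma-2, pos-1 and rme-2.

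The windows were searched for words typical of small RNA genes. Of the 10 words of 8 bases most in excess at the 420 reproducible peaks near tRNA, snRNA or snoRNA starts, none occurred in the 8 windows of 151 bp, against 5.25% of the 571 peaks near a protein-coding start with none of those small RNA genes nearby, so that 0 of 8 is close to the share of such peaks. Within the 500 bp upstream of the start, 1 of the 8 genes held one of these words (pos-1, GCTCTACC at 499 bp), against 1038 of 19973 protein-coding genes. The word GGTTCGA, part of the internal B box of tRNA genes, was in 0 of 8 windows, in 32.1% of small RNA peaks and in 1.23% of the protein-coding peaks. CTGTTTCA, the core of a word found upstream of worm piRNA genes, was also in 0 of 8 windows and in 2 of the 571 protein-coding peaks. TATAAA was in 0 of 8 windows and in 12.4% of protein-coding peaks, but within the 500 bp upstream of the start it was in 7 of 8 genes, against 54.0% of protein-coding genes. GAGAGA was in 1 of 8 windows, at mex-6, and in 14.5% of protein-coding peaks. TTTTTT was in 5 of 8 windows and in 54.8% of protein-coding peaks. All words were searched on both strands, and overlapping matches were allowed. The windows of the 8 genes held between 31.1% and 43.0% G and C, with a median of 37.1%, against a median of 41.1% at the 571 protein-coding peaks, which include those of the 5 members.

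The 10 words of 7 bases most in excess at 566 protein-coding peaks that belong to none of the 8 genes were also searched. At least 1 of them was in 7 of 8 windows, against 64.4% of 571 protein-coding peaks. The 571 peaks include those of 5 members and the 566 peaks that gave the words. In the 500 bp upstream of the start, at least 1 of the words was in 8 of 8 genes, against 81.8% of protein-coding genes. AAGGCGC was in more of the members' windows than the other words and is followed here for that reason. Its shares among the members are therefore not independent of that choice. AAGGCGC was in 4 of 8 windows, at mex-5, rme-2 and egg-1 and at mex-6, whose region is not a reproducible peak. It was in 11.5% of the other protein-coding peaks and in 1.19% of sequences of the same length 1000 bp to either side. Within the 500 bp upstream of the start AAGGCGC was in 5 of 8 genes, against 4.67% of protein-coding genes, and it read in the direction of the gene in all 5. The share of 4.67% is for both directions, and the direction at other genes was not counted. The first base of AAGGCGC lay 358 bp upstream of mex-5, 478 bp upstream of mex-6, 470 bp upstream of oma-2, 60 bp upstream of rme-2 and 202 bp upstream of egg-1. At oma-2 it fell outside the window around the summit. TACCGTA, found in 11.7% of the other protein-coding peaks and 1.00% of their flanks, was in the windows of mex-5 and mex-6, downstream of AAGGCGC in each. CGAGACC and GAGACCC, which overlap each other, were in 1 of 8 windows, at egg-2, and in 85 and 68 of the 566 other protein-coding peaks. GCGCGAA was in 1 window, at rme-2, and AAAGGCG in 1 window, at mex-5, each overlapping AAGGCGC and each in 11.7% of the other peaks. CGCGAAA (80 of the 566 other peaks) and GCGAGAC (68 of 566) were in 0 of 8 windows. The remaining words found were the A- and T-rich AAAATAA at oma-2 and rme-2 and AAAAATA at mex-5, pos-1 and oma-2, which were in 25.8% and 27.7% of the other peaks and in 14.6% and 17.2% of their flanks. The window of oma-1 held none of the 10. TTCCCGC, a word of the kind bound by E2F factors, lay 115 bp upstream of egg-1 and 124 bp upstream of egg-2, in the reverse direction in both, and at none of the other 6 genes. Over all protein-coding genes 5.57% held it in these 500 bp, in either direction.

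Of 62 further genes with roles in the oocyte, egg or early embryo, listed in 7 sets, 12 had a reproducible peak (19.4%, against the 4.25% of protein-coding genes given above). These sets were also chosen with earlier results of these data known. The set of egg surface and eggshell genes had 6 of 13: cpg-1 and cpg-2, which encode proteoglycans of the eggshell, with signals of 187 and 163, perm-1, an eggshell permeability gene, with 119, egg-6 with 90.9, the chitin synthase gene chs-1 with 85.4, and egg-3, a partner of EGG-1 and EGG-2 at the egg surface, with 64.2. The ranks of egg-3 were far apart, at 7916 in replicate 1 and 616 in replicate 2. Regulators of maternal RNA had 4 of 14, the PUF protein genes puf-5 with 134, puf-3 with 123 and puf-11 with 110, and cey-2, a Y-box protein gene, with 83.9. Among the other CCCH genes mex-1 had a peak (1 of 4, signal 118, summit 189 bp upstream), with rank 688 in replicate 1 and 361 in replicate 2. Of 10 polarity genes, plk-1 had a peak, with a signal of 68.5. The plk-1 summit also lay within 500 bp of the start of an ncRNA gene, C14B9.15, so this peak cannot be given to one of them. The 9 targets of maternal RNA regulation, the 10 genes for yolk proteins and their uptake and the 2 other LDL receptor genes had none, although 6, 4 and 0 of them had a pooled region. At a share of 4.25% over all protein-coding genes, counts of 0 in sets of this size say little. Among the vit genes, which encode yolk proteins made in the intestine, vit-6 had a region downstream of its start in the pooled list (signal 31.4) and in both replicates.

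For scale, the nearest protein-coding genes above and below each member in the reproducible list are given, passing over peaks that lie near no protein-coding start. For mex-5 at rank 272 these were R10D12.13, whose region also lay near algn-13 (rank 269, signal 158), and wip-1 (rank 273, signal 157). For rme-2 at rank 415 they were W08E12.7 (rank 412) and atx-2 (rank 420), both with a signal of 117. Those of pos-1 were W04G5.16 and vps-37, with 90.4 each. Those of oma-2 were cids-2 with 67.9 and ztf-28 with 67.7, and those of egg-1 were glh-2, a germ granule helicase gene, and rpi-2, with 66.9 each. Another start also lay near some of these regions: W04G5.11 at W04G5.16, phip-1 at cids-2 and C55B7.11 at glh-2.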

How the data were processed

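SNPC-1.1 ChIP-seq regions of 2 biological replicates (1 group) were analysed. Per the text files deposited with the lists, the authors made each list of regions from 1 or both replicate alignments and a control, and derived the reproducible peaks from 3 lists by an irreproducible discovery rate threshold. Aligner, caller and threshold were not given in the sources used here. Each deposited signal value is a score of the authors on a scale not stated, and the deposited summit offset was added to the region start. The 4 lists on ce11 were used; the 4 on ce10 were not, because the annotation (Ensembl release 115) and genome are of WBcel235, the build of ce11. All region ends lay within its chromosomes. Coordinates are 1-based. Python 3.11.15, numpy 2.4.6, scipy 1.17.1 and Biopython 1.88 were used. Counting of regions and words was tested on simulated data. Proteins were translated from the annotated coding exons, and the longest was aligned with BLOSUM62. Named were the 8 members, related genes with a reproducible peak, the protein-coding genes next above and below each peak, and genes starting within 500 bp of these summits. Members and lists were chosen with earlier results of these data known. The 3 prime ends and the words of 7 bases were chosen after seeing the data.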

Additional observations from a re-analysis of the deposited data

How the results depend on the processing

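With a window of 200 bp instead of 500 bp, a reproducible peak was left at 2 of the 8 genes (egg-1 and rme-2). It was left at 392 protein-coding genes (1.96%) and 6 related genes (9.68%). A pooled region was left at 3 of the 8, a region in replicate 1 at 2 and in replicate 2 at 2. For the pooled and replicate lists the share of protein-coding genes at 200 bp was not computed, so these counts cannot be set against it. With the 750 peaks of highest signal, 3 of the 8 (mex-5, pos-1 and rme-2) and 361 protein-coding genes had one. Counting the nearest start only left 538 protein-coding genes, and of the 8 it removed mex-5, whose reproducible summit is nearer to rec-8. In replicate 1 the summit was nearer to mex-5 (233 bp, against 297 bp to rec-8), and there all 8 genes were kept. With one replicate left out, between 4 and 6 of the 8 genes had a region among the 1500 strongest (without replicate 1, egg-1 was lost; without replicate 2, oma-1 was gained), as had 773 to 847 protein-coding genes and 12 related genes either way. Taking the summit nearest to the start instead of the strongest changed the signal of oma-2 to 32.3 in the pooled list, 16.7 in replicate 1 and 13.2 in replicate 2, at a region inside the gene. Of 70 alternatives, 58 kept their value or stayed within 1.5 times of it. Some of these could not change, so the count is no measure of stability. The summit nearest to the start could differ from the strongest only at pos-1 and oma-2, because at the other genes 1 region was listed in the window. No paired analysis was possible because there is 1 group. Depth is unknown, and a gene with no listed region may still hold signal below the lists' floor.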
